A study of Mus musculus with 20 samples.

Results

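The response of the wild-type (WT) mouse lung to 4 weeks of low oxygen was read from 11 of the 20 whole-lung RNA-seq libraries of the study. The libraries were taken by their group labels, and comprised 5 from C57BL/6 mice kept in 10% oxygen (WT hypoxia) and 6 from C57BL/6 mice kept in room air with 21% oxygen (WT normoxia). The labels name no allele or drug in these mice. The other 9 libraries came from mice labelled VIPKO, which lack vasoactive intestinal peptide by the sample titles (the genotype field says knockdown), 4 in normoxia and 5 in hypoxia, all for the same 4 weeks. They entered the filter on low signal, the estimate of the spread and the closing comparison. The labels place all 20 libraries in Batch 1, and do not say whether each library came from its own animal, so a p-value here measures only how these libraries vary, which may be technical. Neither the age nor the sex of the mice is given in the labels used here.

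A lung that breathes low oxygen constricts its small arteries, and over weeks the vessel walls are remodelled and pulmonary artery pressure rises, which is why chronic hypoxia in mice is a standard model of pulmonary hypertension. Cells sense oxygen through prolyl hydroxylases that mark hypoxia-inducible factors (HIF) for destruction. When oxygen is short, HIF dimers bind a short DNA core in target promoters and raise genes of glycolysis, glucose uptake and vessel growth. The gas-exchange surface is built of type 1 and type 2 alveolar cells and of capillaries of a general kind and of a second, large kind called aerocytes.

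Lung markers were high in all 11 libraries. The surfactant gene Sftpc lay between 56999 and 245000, Ager of type 1 cells between 13218 and 32010, the endothelial gene Cdh5 between 10545 and 20363 and Scgb1a1 of airway club cells between 134460 and 366760 units of normalized signal. The signal is the value that the submitters deposited per gene, and is not divided by gene length. Depth, estimated from the smallest step between values, was 4.96 to 56.7 M reads. Vip itself, the gene of vasoactive intestinal peptide, was near the floor in most libraries. Its signal was 2.37, 6.77, 1.38, 0 and 3.43 in WT hypoxia 1 to 5 and 2.11, 12.7, 1.68, 5.17, 93.0 and 0 in WT normoxia 1 to 6. The groups overlapped, and the difference of the means, -16.3, was not larger than the spread (2-sided exact permutation p = 0.342).

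Of the hypoxia libraries, 2 stood apart. WT hypoxia 4 was the shallowest, with the 4.96 M reads. In WT hypoxia 5, 13 of 13 skeletal muscle genes, 7 of 7 genes of basal and squamous epithelium, 13 of 13 adipocyte genes and 9 of 11 cardiac genes were the highest of the 11 WT libraries. Skeletal muscle actin Acta1 was at 16163 there against at most 22.2 in the other 10, the squamous keratins Krt4 and Krt13 were at 43127 and 39977 against at most 11.7 and 5.66, and the brown fat gene Ucp1 was at 4852 against at most 172. These 4 were picked after their values were seen. The summed signal of the skeletal muscle list was 45.3, 86.5, 122, 316 and 39732 in WT hypoxia 1 to 5 and 96.0 to 168 in normoxia, and that of the basal and squamous list was 23.0, 35.5, 60.9, 101 and 89216 against 9.44 to 30.0. On the cardiac list the sums were 2347, 4629, 4608, 13123 and 17831 against 3458 to 8189, so both WT hypoxia 4 and WT hypoxia 5 were above every normoxia library. Counts below are therefore also given without these 2 libraries wherever that changes them, a setting chosen after the values were seen. None of the tested genes on these lists passed the test between the groups (skeletal muscle 0 of 9, cardiac muscle 0 of 11, basal and squamous epithelium 0 of 3, and likewise cartilage 0 of 2, mesothelium 0 of 5 and peripheral nerve 0 of 6, by limma), and all 7 thymus genes were below the filter. At an unadjusted p under 0.05 these counts were 0 for skeletal muscle, 2 for cardiac muscle, 3 for basal and squamous epithelium, 1 for cartilage, 2 for mesothelium and 2 for nerve. With voom weights 1 mesothelial gene passed and none of the others. Without WT hypoxia 4 and 5, 1 cardiac gene and 2 nerve genes were called lower and 1 mesothelial gene higher. Single libraries also moved these counts: 1 cardiac gene was called higher without WT normoxia 2 or WT hypoxia 1 or 2, 1 squamous gene without WT hypoxia 1 or 2, and 1 mesothelial gene without WT normoxia 5 or WT hypoxia 4.

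**Figure D1:**
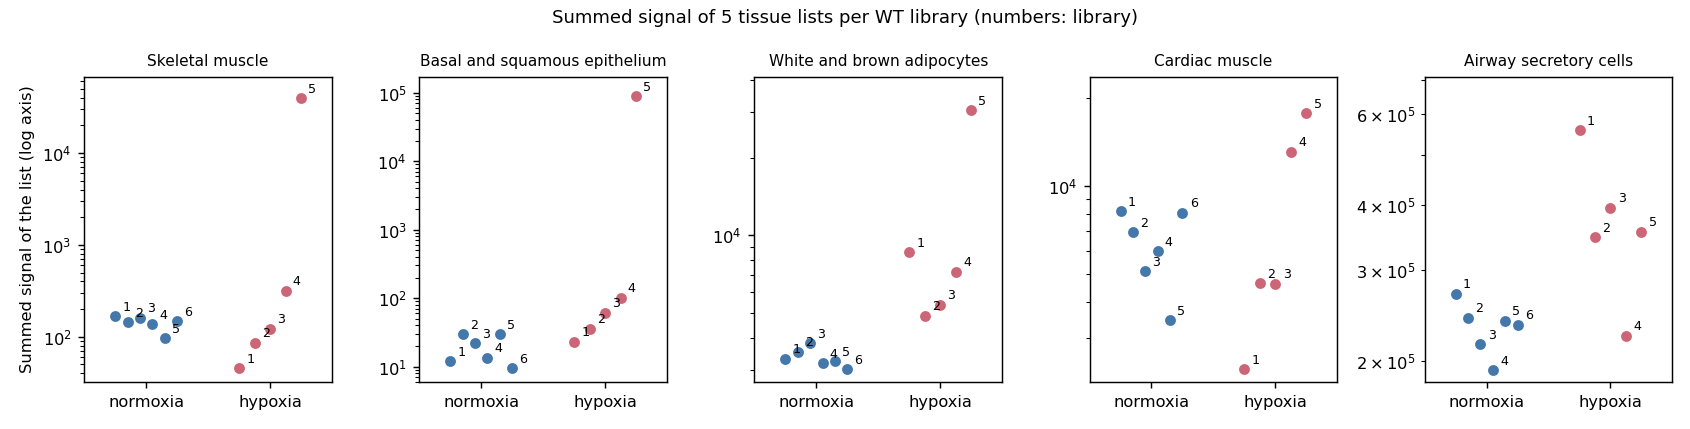
Summed signal (log axis) of 5 lists of tissue markers in each WT library, numbered within its group. WT hypoxia 5 is the highest library on the skeletal muscle, squamous, adipocyte and cardiac lists, while WT hypoxia 1 is the highest on the airway secretory list.

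The comparison asked which genes of the WT lung differ after 4 weeks in 10% oxygen. Of 21658 genes tested, 3173 (14.7%) differed at an adjusted p under 0.05 (limma, Benjamini-Hochberg), 1707 higher (7.88%) and 1466 lower (6.77%). The larger changes were mostly falls, with 236 genes (1.09%) more than 2-fold higher and 566 (2.61%) more than 2-fold lower. The median log2 difference over all genes was -0.01, and 49.4% of genes were positive. The count depended on single libraries: it was 2110 without WT normoxia 2, 2074 without WT normoxia 4, 1737 without WT hypoxia 1, 1382 without WT hypoxia 3 and 1965 without WT hypoxia 5, and 3541 without WT hypoxia 4 and 5 together. Lists of genes were read against the shares of 7.88% and 6.77%. Where the share of a list lies near these, its count is given as a value and is not read as a result about the list. Below, differences are hypoxia minus normoxia on the log2(signal + 1) scale with the standard error of the fit, and "passed" means an adjusted p under 0.05 over all genes.

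**Figure D2:**
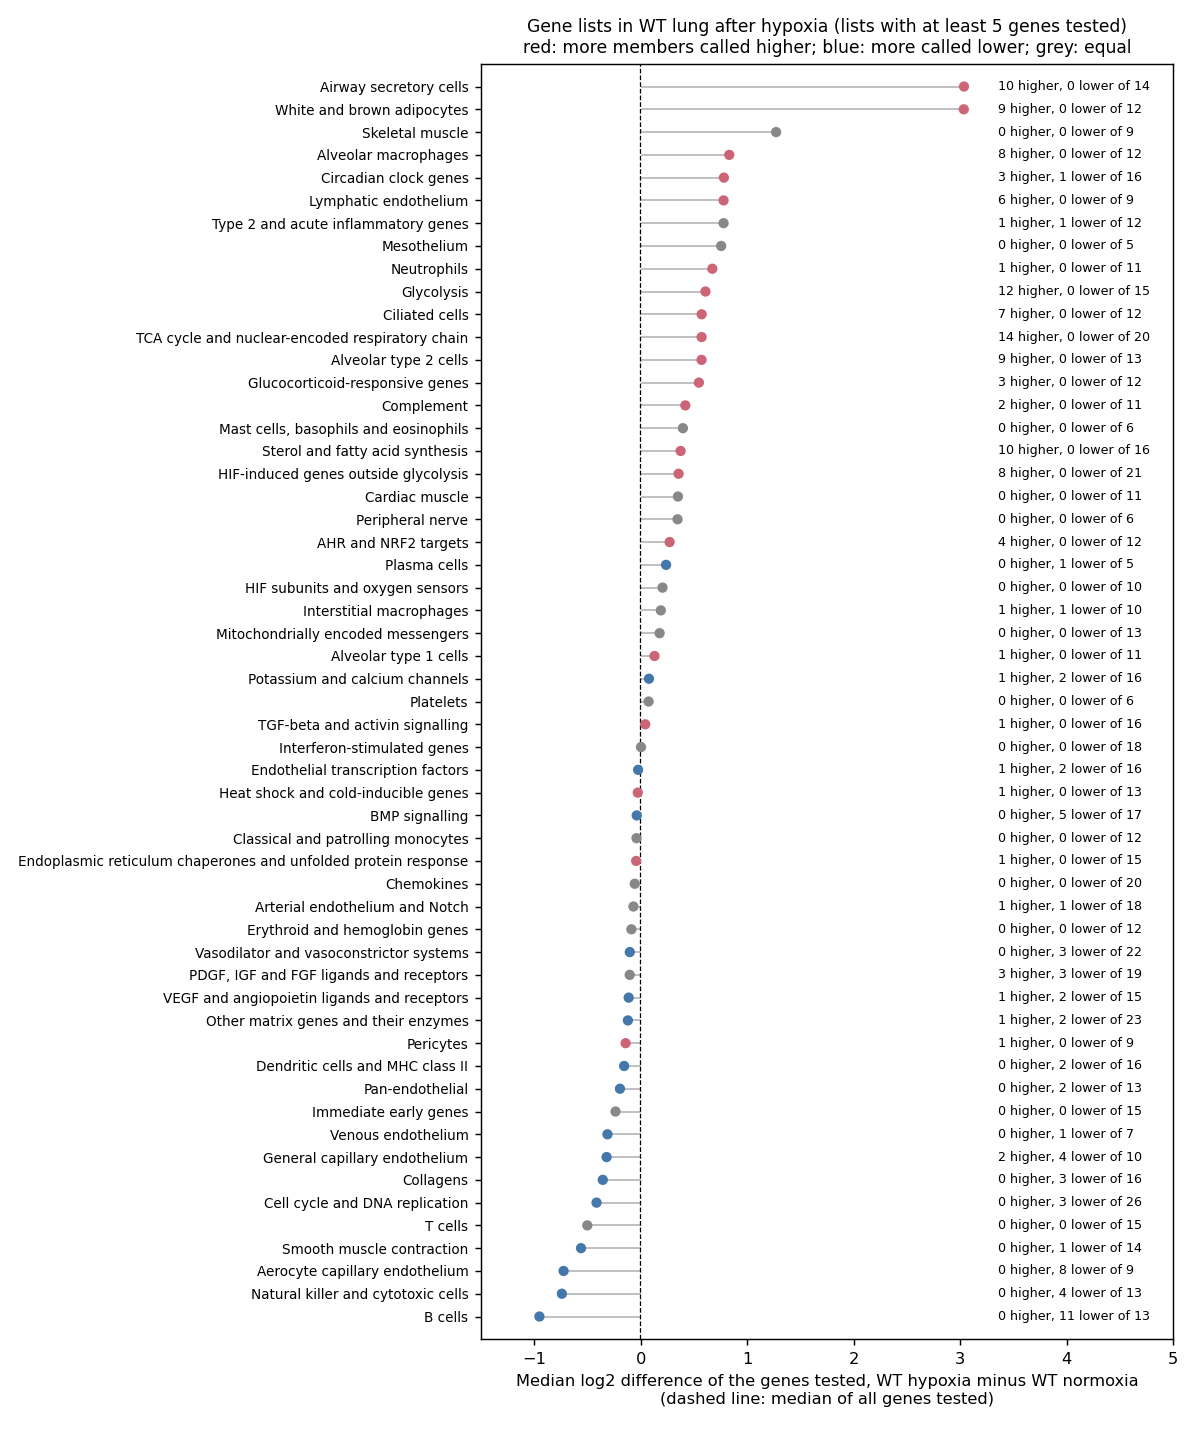
Median log2 difference between WT hypoxia and WT normoxia of each gene list with at least 5 genes tested, with the number of members called higher and lower. The dashed line is the median of all genes. Airway secretory and adipocyte lists lie at 3.03, and the B cell list lies lowest, at -0.95.

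Genes with the smallest p that fell were led by Ankrd63 and Plvap. Ankrd63, an ankyrin repeat gene (chromosome 2, 118699103 to 118703963, GRCm38), had 73.6, 107, 160.5, 85.5 and 152 in WT hypoxia 1 to 5 and a lowest, median and highest of 384, 578 and 701 in normoxia. No hypoxia library came near the normoxia range, and the gene fell by 2.27 ± 0.23 (adjusted p = 4.64e-05). Plvap, which builds the diaphragms of endothelial caveolae (chromosome 8, 71497765 to 71511752), was at 1449, 1486, 2678, 2134 and 3094 in hypoxia and at 5443, 6010.1 and 6339.6 in normoxia, and fell by 1.52 ± 0.17 (adjusted p = 0.000182). Among the hypoxia libraries 1 and 2 were the lowest and 5 the highest, and all 5 were below every normoxia library. Separated groups were a condition for naming the 10 genes of each direction, so the separation of these genes is not a result. Over all genes, 3.81% were separated with hypoxia lower and 4.13% with hypoxia higher.

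The other genes of this set all fell by less than Ankrd63, and Adamts9 fell by more than Plvap. Smad6, which blocks BMP signals inside the cell, was at 1688, 2105, 2418, 2468 and 2780.2 in hypoxia against 4209, 4698 and 5230.4 in normoxia, a fall by 1.06 ± 0.14 (adjusted p = 0.000649). The metalloprotease gene Adamts9 had 656, 622, 651, 1874 and 825 against 2284, 2639.9 and 3206. WT hypoxia 4 was closest to normoxia, and the fall was by 1.68 ± 0.24 (adjusted p = 0.00117). The transcription factor gene Sox11 fell by 1.31 ± 0.17 (adjusted p = 0.000649), Rgs9, a regulator of G protein signals, by 1.39 ± 0.19 (adjusted p = 0.000714), Dpysl5 by 1.03 ± 0.12 (adjusted p = 0.000246), the sulfotransferase gene Chst1 by 0.99 ± 0.14 (adjusted p = 0.00117), the tetraspanin gene Tspan18 by 0.91 ± 0.13 (adjusted p = 0.00117) and the semaphorin receptor gene Plxna1 by 0.60 ± 0.09 (adjusted p = 0.00117). All 10 calls held in each of the 11 fits that left out 1 WT library.

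The genes with the smallest p that rose included Cpe, Retn and Cfd. Cpe, carboxypeptidase E, which trims prohormones, was at 655, 651, 459, 669 and 947 in WT hypoxia 1 to 5 and at 277, 310.2 and 353 in normoxia, and rose by 1.08 ± 0.14 (adjusted p = 0.000665). Retn, the adipokine resistin (chromosome 8, 3655770 to 3660110), was close to the floor in normoxia, at 0, 1.59 and 7.08, and at 68.9, 27.1, 33.2, 183 and 239.9 in hypoxia. Its rise was by 4.98 ± 0.69 (adjusted p = 0.000817). Cfd, which codes for adipsin, a complement protease made by fat cells, was at 1605, 277, 635, 2157 and 5589 against 4.72, 32.4 and 185 and rose by 5.52 ± 0.80 (adjusted p = 0.00117). Both were highest in WT hypoxia 5 and next highest in WT hypoxia 4.

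Ccl21a, a chemokine gene of lymphatic endothelium, was at 1249, 2358, 2001, 2990 and 2180.3 in hypoxia against 638, 883 and 1004 in normoxia and rose by 1.28 ± 0.18 (adjusted p = 0.000832). Cyp2a5, a cytochrome P450, was at 1941, 1810.3, 1331, 1081 and 925 against 82.1, 188 and 608 and rose by 2.87 ± 0.42 (adjusted p = 0.00117). Near-identical copies of both genes exist, and the sharing of reads among the copies is not given, which leaves both values uncertain. The mitochondrial gene Chchd10 rose by 1.09 ± 0.16 (adjusted p = 0.00129), with 696 to 1196 in normoxia and 1594 to 2553 in hypoxia. Lratd1 rose by 1.16 ± 0.15 (adjusted p = 0.000665), the sodium pump regulator gene Fxyd6 by 0.96 ± 0.13 (adjusted p = 0.000817), Klhl4 by 1.39 ± 0.21 (adjusted p = 0.00117) and the autophagy gene Map1lc3a by 0.57 ± 0.09 (adjusted p = 0.00129). Separated groups were again a condition for naming these genes. The 10 calls held in each of the 11 fits without 1 WT library.

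**Figure D3:**
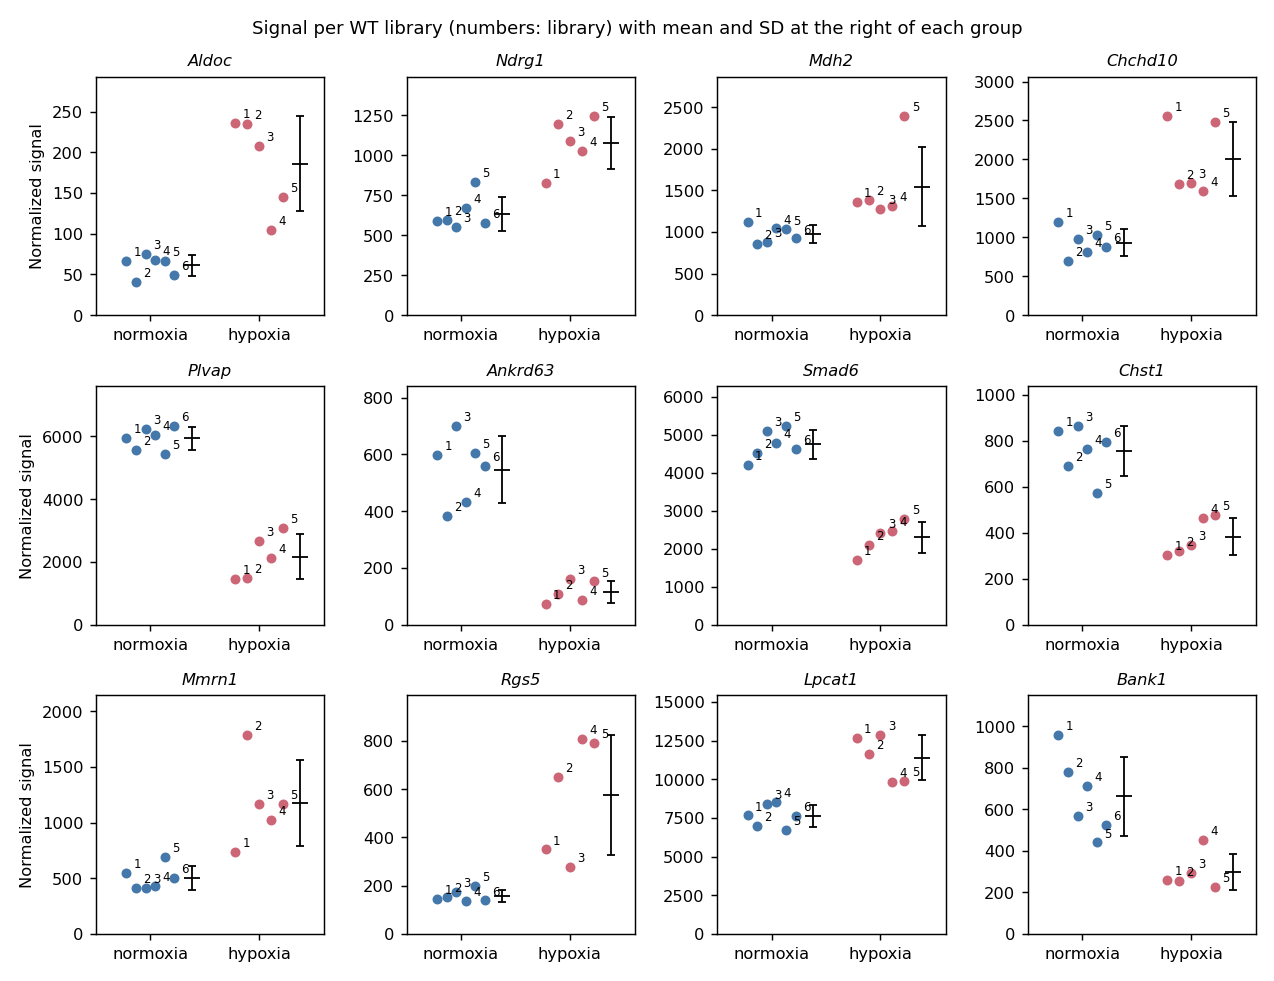
Normalized signal of 12 genes in each WT library, numbered within its group, with the mean and SD at the right of each group. Ankrd63, Plvap, Smad6 and Chst1 are separated downwards, Aldoc, Mdh2, Chchd10, Mmrn1, Rgs5 and Lpcat1 upwards, and Ndrg1 and Bank1 overlap.

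Oxygen-responsive genes came next. Of the HIF subunits and oxygen sensors, 0 of 10 passed by limma (3 at an unadjusted p under 0.05, 0 with voom weights), and the median was 0.20. The smallest p was that of Egln3, a HIF-induced prolyl hydroxylase, at 42.7, 60.9, 49.8, 31.1 and 354 in hypoxia against 15.1, 28.2 and 36.8 in normoxia (1.38 ± 0.48, adjusted p = 0.0588), with the top value in WT hypoxia 5. On this list 2 genes were called higher without WT hypoxia 4, and 1 without WT hypoxia 4 and 5 together. Of the HIF-induced genes outside glycolysis, 8 of 21 rose and 0 fell, with a median of 0.35. The count of rises was 5 without WT hypoxia 1 or WT hypoxia 3. Without WT hypoxia 4 and 5 together 7 rose and 2 fell, and 1 fell without either one alone.

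The promoters of 3 HIF-responsive genes that rose are shown as examples, picked because their windows hold the letters that HIF dimers bind. The window of Tpi1, a glycolysis gene that rose as well, holds 0 such matches. They are the 250 bases before the start site of Aldoc (chr11:78322823-78323072, plus strand), Ddit4 (chr10:59951771-59952020, minus strand) and Pfkl (chr10:78009808-78010057, minus strand), from RefSeq promoters of GRCm38.p6, written 5′ to 3′ in the direction of the gene. Capitals mark each ACGTG or GCGTG, the core letters of the hypoxia response element, searched on both strands.
Aldoc: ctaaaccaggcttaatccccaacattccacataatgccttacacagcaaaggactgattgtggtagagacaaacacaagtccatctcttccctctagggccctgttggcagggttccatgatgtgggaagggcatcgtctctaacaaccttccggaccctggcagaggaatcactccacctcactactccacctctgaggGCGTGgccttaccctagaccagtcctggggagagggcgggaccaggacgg
Ddit4: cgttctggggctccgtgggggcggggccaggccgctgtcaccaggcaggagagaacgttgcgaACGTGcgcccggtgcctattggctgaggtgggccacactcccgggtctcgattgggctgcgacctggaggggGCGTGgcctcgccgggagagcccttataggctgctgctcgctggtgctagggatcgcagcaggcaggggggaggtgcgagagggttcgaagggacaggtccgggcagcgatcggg
Pfkl: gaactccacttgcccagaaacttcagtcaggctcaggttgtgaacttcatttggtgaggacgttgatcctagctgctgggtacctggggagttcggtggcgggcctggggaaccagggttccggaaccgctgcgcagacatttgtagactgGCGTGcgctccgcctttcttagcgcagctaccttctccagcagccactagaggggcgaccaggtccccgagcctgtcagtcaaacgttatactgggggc
Over the whole windows, from 250 bases before to 50 after the start, 77.8% of the 27 promoters of 16 glycolysis genes and 80.8% of the 26 promoters of 17 HIF-induced genes held a match. For the TCA cycle and respiratory chain list, described below, it was 82.4% of 17 promoters of 12 genes, so the high share was not limited to the HIF-linked lists. The share was 57.3% over promoters of all genes tested and 43.8% over all promoters in the table. It was 59.3% for genes called higher and 54.4% for genes called lower, so the letters were common, and a match is a description of the sequence and not a bound site. The mean GC content was 60.2%, 64.9% and 59.0% in the 3 lists and 59.3% over genes tested.

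Ndrg1, a stress-responsive gene of differentiation, was at 824, 1196, 1090.2, 1026 and 1242 in WT hypoxia 1 to 5 and at 549, 590.0 and 835 in normoxia. WT normoxia 5 slightly exceeded WT hypoxia 1, and the rise was by 0.76 ± 0.12 (adjusted p = 0.00175). Ddit4, which restrains mTOR in low oxygen and after glucocorticoids, was at 944, 1345, 758, 1108 and 979 against 238, 372 and 724, without overlap, and rose by 1.36 ± 0.26 (adjusted p = 0.00456). Bhlhe40, a HIF-induced repressor that also acts on the clock, rose by 0.90 ± 0.19 (adjusted p = 0.00750), with WT hypoxia 4 inside the normoxia range.

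Most genes of the glycolysis list rose. Of 15 genes tested, 12 rose and 0 fell, with a median of 0.61. Aldoa, also listed, was not among the 15. Aldoc, an aldolase, was at 236, 235, 208, 105 and 145 in hypoxia against 41.0, 66.4 and 75.5 in normoxia, with WT hypoxia 4 lowest of its group, and rose by 1.55 ± 0.25 (adjusted p = 0.00176). Tpi1, triosephosphate isomerase, was at 1689, 1389, 1591, 1442 and 2426 against 833, 1017 and 1149.5 and rose by 0.73 ± 0.14 (adjusted p = 0.00406). Pfkl, the liver form of phosphofructokinase, was at 1361, 1164, 1270, 1077 and 2024 against 657, 893 and 971 and rose by 0.65 ± 0.14 (adjusted p = 0.00903). For none of the 3 did the groups overlap, and Tpi1 and Pfkl were highest in WT hypoxia 5. On this list 1 gene fell without WT hypoxia 4, with or without WT hypoxia 5.

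Mitochondrial energy genes encoded in the nucleus rose with glycolysis. Of 20 genes of the TCA cycle and respiratory chain, 14 rose and 0 fell, with a median of 0.57. The matrix enzyme gene Mdh2 was at 1366, 1384, 1274, 1318 and 2391 in WT hypoxia 1 to 5 against 861, 976 and 1126 in normoxia and rose by 0.63 ± 0.14 (adjusted p = 0.0100). Uqcrc1 of complex III was at 1729, 1636, 1700.3, 1691 and 3114 against 902, 1292 and 1436 and rose by 0.63 ± 0.15 (adjusted p = 0.0143), and the fumarase gene Fh1 rose by 0.59 ± 0.14 (adjusted p = 0.0139). WT hypoxia 5 was far above the other 4 in all of them. For messengers encoded by the mitochondrial genome the count was lower, with 0 of 13 past the test by limma (0 at an unadjusted p under 0.05, 0 with voom weights) and a median of 0.18. Their smallest p was that of mt-Co3, at 13200, 13226, 15620, 7191 and 28251 against 6684, 9582 and 16691 (0.52 ± 0.27, adjusted p = 0.181), and 1 was called higher without WT hypoxia 4.

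Sterol and fatty acid synthesis genes rose in 10 of 16 cases with 0 falls and a median of 0.37. Insig1, the sterol sensor that holds back sterol synthesis, was at 2607, 1969, 2541, 2398 and 2870.4 against 1254, 1685 and 1924 and rose by 0.60 ± 0.13 (adjusted p = 0.00709). The squalene synthase gene Fdft1 rose by 0.66 ± 0.14 (adjusted p = 0.00812) and the lanosterol synthase gene Lss by 0.37 ± 0.09 (adjusted p = 0.0123), both without overlap.

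These 3 metabolic lists moved with WT hypoxia 5, the library with the muscle, fat and squamous genes. The mean log2 level of the glycolysis list, relative to the normoxia mean, was 0.54, 0.35, 0.49, 0.38 and 1.16 in WT hypoxia 1 to 5 and -0.26 to 0.11 in normoxia. For the TCA cycle and respiratory chain it was 0.44, 0.28, 0.39, 0.24 and 1.22 against -0.27 to 0.12, and for sterol and fatty acid synthesis 0.52, 0.23, 0.42, 0.55 and 1.03 against -0.18 to 0.18. All 5 hypoxia libraries lay above the normoxia range in each list. Without WT hypoxia 5 the counts higher were 9, 8 and 5, and without WT hypoxia 4 and 5 together they were 6, 8 and 4, with medians of 0.40, 0.39 and 0.34. The TCA and respiratory chain count was also 8 without WT hypoxia 1 and 9 without WT hypoxia 3, and the sterol count was 6 without WT normoxia 2. The part that the tissue carried in WT hypoxia 5 has in the values was not tested beyond this.

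Other stress lists held few changes. Of the chaperones and unfolded protein response genes, 1 of 15 rose, Herpud1 of the endoplasmic reticulum (0.73 ± 0.18, adjusted p = 0.0154), with a median of -0.04. Of the heat shock and cold-inducible genes, 1 of 13 rose, the cold-shock gene Rbm3 (0.58 ± 0.17, adjusted p = 0.0275), with a median of -0.03. That call was lost without WT hypoxia 1, 2 or 3 (adjusted p 0.0649 to 0.0721), and 1 gene of the list fell without WT hypoxia 4, with or without WT hypoxia 5. Of the aryl hydrocarbon receptor and NRF2 targets, 4 of 12 rose with a median of 0.27. The heme oxygenase gene Hmox1 was at 714, 692, 787, 540.3 and 679.6 in hypoxia against 384, 420.9 and 455 in normoxia, without overlap, and rose by 0.69 ± 0.17 (adjusted p = 0.0160). The glutathione synthesis gene Gclm rose by 0.40 ± 0.11 (adjusted p = 0.0210) and lost the call without WT hypoxia 1 or 3 (adjusted p up to 0.0538). Tiparp rose by 0.36 ± 0.12 (adjusted p = 0.0481), a call kept only without WT normoxia 5 or WT hypoxia 4 (at most 0.122 for the adjusted p otherwise). The list count was 6 without WT hypoxia 4, 5 without WT hypoxia 4 and 5 together, 1 without WT hypoxia 1 or 3, and 2 without WT hypoxia 2 or any of WT normoxia 1, 2, 3, 4 and 6.

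In the endothelium the aerocyte list had the most falls. Of its 9 genes 8 fell and 0 rose, with a median of -0.73 (-0.73 with all 9 lower without WT hypoxia 4 and 5). Tmeff2 was at 83.9, 89.7, 130, 120.5 and 154 in WT hypoxia 1 to 5 and at 175, 254 and 313 in normoxia, and fell by 1.09 ± 0.19 (adjusted p = 0.00240). Fibin was at 486, 518, 598, 431 and 556 against 724, 847 and 1056 and fell by 0.75 ± 0.13 (adjusted p = 0.00246). Chst1, given above, was the aerocyte gene with the smallest p. For none of these 3 did the groups overlap, which for Chst1 was a condition for naming it and is not a result. Over the list 4 of 9 genes were separated with hypoxia lower, against 3.81% of all genes. In bulk tissue, fewer cells of a type and less RNA per cell cannot be told apart, here and for every cell type below.

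General capillary genes were split. Of 10, 4 fell and 2 rose, with a median of -0.32. Beside Plvap, the prostaglandin-degrading enzyme gene Hpgd was at 2489.5, 3198, 3305, 2157 and 2849.9 against 3483, 3771 and 5371 and fell by 0.56 ± 0.13 (adjusted p = 0.0106). The chemokine gene Cxcl12 went the other way, at 8474, 8341, 10694, 15770 and 11396 against 5138, 6855 and 8352 with WT hypoxia 4 highest, and rose by 0.66 ± 0.16 (adjusted p = 0.0133). That rise was lost without WT hypoxia 4 and 5 together (0.44, adjusted p = 0.0646), when 0 members rose and 5 fell. The count of rises was 1 without any one of WT normoxia 1, 2, 3, 4 and 6 or WT hypoxia 2, 3, 4 and 5.

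Genes of all endothelium moved little. Of the pan-endothelial list 2 of 13 fell (15.4%, against 6.77% of all genes), with a median of -0.20, and 5 fell without WT hypoxia 4 and 5. Icam2, an adhesion molecule, fell by 0.42 ± 0.10 (adjusted p = 0.0124). Cdh5, the cadherin of endothelial junctions, fell by 0.42 ± 0.13 (adjusted p = 0.0296), a call kept only without WT normoxia 2 or 5 or WT hypoxia 4 or 5 (at most 0.0877 for the adjusted p otherwise). The count of falls was 1 without each of the libraries that ended the Cdh5 call and 4 without WT hypoxia 4.

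Of the arterial and Notch genes 1 of 18 rose and 1 fell (5.56% each), with a median of -0.07. Over all genes 7.88% rose and 6.77% fell, so these counts lie close to those shares. Bmx, a tyrosine kinase of arterial endothelium, was at 323, 301, 223, 194 and 170.2 against 106, 156 and 171 and rose by 0.69 ± 0.16 (adjusted p = 0.0119). The receptor gene Notch4 fell by 0.44 ± 0.14 (adjusted p = 0.0402), a call kept only without WT normoxia 1 or 2 or WT hypoxia 2 or 4 (at most 0.110 for the adjusted p otherwise). In this list 5 fell without WT hypoxia 4 and 5 together and 7 without WT hypoxia 4 alone, and 2 rose without WT normoxia 5 or WT hypoxia 4. Of the venous genes 1 of 7 fell, with a median of -0.31. This was the adhesion gene Vcam1, which was at 640.4, 888, 1109.5, 945 and 1063 against 1158, 1439 and 1524, without overlap, and fell by 0.61 ± 0.14 (adjusted p = 0.00913). The venous count was 2 without WT normoxia 2.

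The lymphatic list went against the capillary lists. Of 9 genes 6 rose and 0 fell, with a median of 0.78 (7 and 0.83 without WT hypoxia 4 and 5). Mmrn1, a secreted protein of lymphatic endothelium, was at 737, 1785, 1168, 1026 and 1168 in hypoxia against a median of 469 and a highest value of 694 in normoxia and rose by 1.20 ± 0.20 (adjusted p = 0.00240). Tbx1, a transcription factor gene of lymphatic growth, was at 378, 421.3, 285, 307 and 343 against 133, 213 and 245 and rose by 0.78 ± 0.13 (adjusted p = 0.00244). WT hypoxia 2 was the highest library for both, and neither gene's groups overlapped.

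Of the endothelial transcription factors 1 of 16 rose (6.25%) and 2 fell (12.5%), with a median of -0.03. Over all genes 7.88% rose and 6.77% fell, and counts this small lie close to those shares. Foxc1 was at 233, 171, 178, 198 and 228 against 89.7, 122 and 157, without overlap, and rose by 0.74 ± 0.16 (adjusted p = 0.00936). Gata2 fell by 0.46 ± 0.14 (adjusted p = 0.0309), a call kept only without WT normoxia 1 or 2 or WT hypoxia 2 or 4 (at most 0.0887 for the adjusted p otherwise). Ets1 fell by 0.44 ± 0.15 (adjusted p = 0.0490), a call kept only without WT normoxia 5 or WT hypoxia 4 (at most 0.134 for the adjusted p otherwise). The count of falls was accordingly 0 without WT normoxia 3, 4 or 6 or WT hypoxia 1, 3 or 5, and 1 without WT normoxia 1 or 2.

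Of the VEGF and angiopoietin genes 1 of 15 rose (6.67%) and 2 fell (13.3%), with a median of -0.11. These small counts lie close to the shares over all genes, 7.88% higher and 6.77% lower. The ligand gene Vegfa, which is made largely by alveolar epithelium in the lung, was at 15508, 14637, 13929, 15098 and 13135 in WT hypoxia 1 to 5 against 15978, 18591 and 22125 in normoxia. Every hypoxia library was below every normoxia library, and the fall was by 0.37 ± 0.09 (adjusted p = 0.0156). The ligand gene Vegfb rose by 0.67 ± 0.14 (adjusted p = 0.00745), with 2 rises on the list without WT normoxia 5. The receptor gene Kdr, which is also on the aerocyte list, was at 5565, 6066, 7616, 8797 and 7579 against 7900.1, 10795 and 11831 and fell by 0.57 ± 0.12 (adjusted p = 0.00756). The list held 3 falls without WT hypoxia 4 and 5 together.

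The BMP pathway, whose ligands signal through receptors such as BMPR2 and ALK1 to keep endothelium quiescent, changed at a ligand, a co-receptor and an inhibitor. Of 17 genes 5 fell and 0 rose, with a median of -0.04. The ligand gene Bmp6 was at 1759.7, 2416, 2359, 2733 and 2604 against 3168, 4126 and 4935 and fell by 0.78 ± 0.12 (adjusted p = 0.00155). Eng, which codes for the co-receptor endoglin, was at 4257, 5797, 6764, 6200.2 and 7581 against 10121, 10885 and 11347 and fell by 0.85 ± 0.13 (adjusted p = 0.00124). Smad6, the inhibitor given above, completed the 3 with the smallest p. Separated groups were a condition for naming Smad6, so its separation is not a result, while Bmp6 and Eng did not overlap. Over the list 4 of 17 genes were separated with hypoxia lower, against 3.81% of all genes. The count of falls was 3 without WT hypoxia 1 and 6 without WT hypoxia 4 and 5 together, and 1 gene rose without WT normoxia 5 or WT hypoxia 3. Of the TGF-beta and activin genes 1 of 16 rose (6.25%, against 7.88% of all genes), with a median of 0.04. This was the receptor gene Tgfbr2 (0.24 ± 0.08, adjusted p = 0.0491), a call kept only without WT hypoxia 1, with an adjusted p up to 0.139 otherwise and 0 on the list, as without WT hypoxia 4 and 5 together.

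Of the growth factor genes of the PDGF, IGF and FGF families 3 of 19 rose and 3 fell, with a median of -0.10. Pdgfb, which recruits pericytes to vessels, was at 2009, 2027, 2549.7, 3720.1 and 2722 against 2798, 3901 and 4603 and fell by 0.59 ± 0.14 (adjusted p = 0.0137). The receptor gene Igf1r fell by 0.31 ± 0.07 (adjusted p = 0.0109), without overlap, and the epithelial receptor gene Fgfr2 rose by 0.42 ± 0.10 (adjusted p = 0.0146). The count of rises was 1 without WT hypoxia 1 or 3, and without WT hypoxia 4 and 5 together 4 rose and 4 fell.

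Among vasodilator and vasoconstrictor genes 3 of 22 fell and 0 rose, with a median of -0.10. Pde5a, the phosphodiesterase that breaks down cGMP and is the target of sildenafil, was at 2852, 3614, 4363, 5726 and 4848 in hypoxia against 5088, 6896 and 8065 in normoxia and fell by 0.69 ± 0.20 (adjusted p = 0.0259). The call was lost on leaving out WT normoxia 2 or WT hypoxia 1, 2 or 3 (at most 0.0756 for the adjusted p). The serotonin receptor gene Htr2b fell by 0.67 ± 0.21 (adjusted p = 0.0387), a call kept only without WT normoxia 3 or 5 or WT hypoxia 1 or 4 (at most 0.0951 for the adjusted p otherwise). The cGMP-dependent kinase gene Prkg1 fell by 0.50 ± 0.16 (adjusted p = 0.0445), kept only without WT normoxia 5 or WT hypoxia 2 or 4 (at most 0.123 for the adjusted p otherwise). The count of falls was 5 without WT normoxia 5 or WT hypoxia 4, 0 without WT hypoxia 3, and 1 without WT normoxia 1, 2, 4 or 6 or WT hypoxia 1, 2 or 5. Rises numbered 2 without WT hypoxia 4, with or without WT hypoxia 5, and 1 without WT normoxia 1.

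Of the potassium and calcium channel genes 1 of 16 rose (6.25%) and 2 fell (12.5%), with a median of 0.08. Over all genes 7.88% rose and 6.77% fell, so counts this small lie close to those shares. Trpv4, a calcium channel that opens on stretch, was at 333, 349, 284, 338 and 356 against 224, 250.4 and 266, without overlap, and rose by 0.42 ± 0.10 (adjusted p = 0.0123). The potassium channel gene Kcna2 was at 289, 562, 386, 699.7 and 543 against 700.4, 755 and 859 and fell by 0.69 ± 0.18 (adjusted p = 0.0177). Its highest hypoxia value, in WT hypoxia 4, was just under the lowest normoxia value, and the call was lost without WT hypoxia 1 or 3 (adjusted p up to 0.0563). The L-type calcium channel gene Cacna1c fell by 0.74 ± 0.23 (adjusted p = 0.0384), kept only without WT normoxia 5 or WT hypoxia 4 (at most 0.111 for the adjusted p otherwise). The count of falls was 4 without WT hypoxia 4, 3 without WT hypoxia 4 and 5 together, 0 without WT hypoxia 1 or 3 and 1 without WT normoxia 1, 2, 3, 4 or 6 or WT hypoxia 5.

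Smooth muscle and matrix genes divided the hypoxia group. Of the smooth muscle contraction genes 1 of 14 fell, with a median of -0.56, and of the collagens 3 of 16, with a median of -0.36. Without WT hypoxia 4 and 5 together, 11 of 14 and 13 of 16 fell, with medians of -1.20 and -0.72. Smooth muscle actin Acta2 was at 352, 758, 968, 4719 and 3746 in WT hypoxia 1 to 5 and at 1114, 2489 and 4536 in normoxia, and smooth muscle myosin Myh11 at 816, 1465, 1679.5, 5633 and 4010.4 against 1622, 3221 and 5386. In both genes libraries 1, 2 and 3 were below the normoxia range, except that library 3 was just above its lowest value for Myh11, while libraries 4 and 5 were above the normoxia median. Over all 5 libraries neither passed (Acta2 -0.79 ± 0.53, adjusted p = 0.302, and Myh11 -0.59 ± 0.42, adjusted p = 0.338), and without the 2 libraries both fell, by 1.88 (adjusted p = 0.00834) and by 1.35 (adjusted p = 0.0231). Acta2, Myh11 and Col1a1 were picked after their values were seen, and so was the setting without WT hypoxia 4 and 5. These 2 were the highest hypoxia libraries for all of these genes, so a fit without them leans towards a fall. Its p-values and counts are given as description only.

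The mean log2 level of the smooth muscle list, relative to the normoxia mean, was -1.71, -1.06, -0.80, 0.68 and 0.58 in WT hypoxia 1 to 5 and -0.78 to 0.60 in normoxia. That of the collagen list was -1.16, -0.90, -0.33, 0.34 and 0.07 against -0.13 to 0.13, and that of the cardiac list, which marks heart muscle or the muscle sleeves of lung veins, was -1.02, -0.09, 0.06, 1.47 and 2.12 against -0.74 to 0.48. Libraries 4 and 5 were thus the highest of the hypoxia group in all 3 lists, and library 1 the lowest. The share of these tissues in the samples was not tested.

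Mylk, the kinase that triggers smooth muscle contraction, fell by 0.57 ± 0.19 (adjusted p = 0.0474), a call kept only without WT normoxia 5 or WT hypoxia 4 (at most 0.133 for the adjusted p otherwise). The smooth muscle count was 5 without WT hypoxia 4 and 0 without any of WT normoxia 1, 2, 3, 4 and 6 and WT hypoxia 1, 2, 3 and 5. Among the collagens, Col6a3 of microfibrils was at 2028, 2509, 3861, 7327 and 5467 against 6954, 7372 and 8432 and fell by 0.98 ± 0.24 (adjusted p = 0.0134). Col12a1 fell by 0.55 ± 0.14 (adjusted p = 0.0186), without overlap, and Col5a1 fell by 1.01 ± 0.27 (adjusted p = 0.0194) with the call lost without WT hypoxia 1 (adjusted p = 0.0531). Col1a1 of fibrillar collagen was at 2308, 2435, 5732, 12346 and 9189 against 6157, 8964 and 10436. It did not pass over all 5 libraries (-0.75 ± 0.32, adjusted p = 0.108), and fell by 1.44 without WT hypoxia 4 and 5 (adjusted p = 0.00146). The collagen count was 5 without WT normoxia 5 and 9 without WT hypoxia 4 alone.

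Of the other matrix genes and their enzymes 1 of 23 rose (4.35%) and 2 fell (8.70%), with a median of -0.12. These counts lie close to the shares over all genes, 7.88% higher and 6.77% lower. Without WT hypoxia 4 and 5 together, 10 fell. Fbln5, which assembles elastic fibres, was at 2917, 2439.8, 2937, 2884 and 2717 against 1924, 2011 and 2379, without overlap, and rose by 0.43 ± 0.09 (adjusted p = 0.00584). The aggrecanase gene Adamts4 was at 7.12, 5.08, 8.30, 81.6 and 21.7 against 24, 50.4 and 67.8, with WT hypoxia 4 the highest of all 11. It fell by 1.58 ± 0.51 (adjusted p = 0.0438), kept only without WT normoxia 5 or WT hypoxia 4 (at most 0.117 for the adjusted p otherwise). The count of falls was 6 without WT hypoxia 4 and 1 without WT normoxia 1, 2, 3, 4 or 6 or WT hypoxia 1, 2, 3 or 5, and 3 genes rose without WT normoxia 5.

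Of the pericyte genes 1 of 9 rose, with a median of -0.14, and without WT hypoxia 4, with or without WT hypoxia 5, another 4 fell (1 without WT normoxia 5). Rgs5, a regulator of G protein signals that marks pericytes, was at 349.9, 649.7, 277, 809 and 790.4 in hypoxia against 135, 147 and 199.8 in normoxia. All 5 hypoxia libraries were above the normoxia range, and the rise was by 1.75 ± 0.31 (adjusted p = 0.00302).

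**Figure D4:**
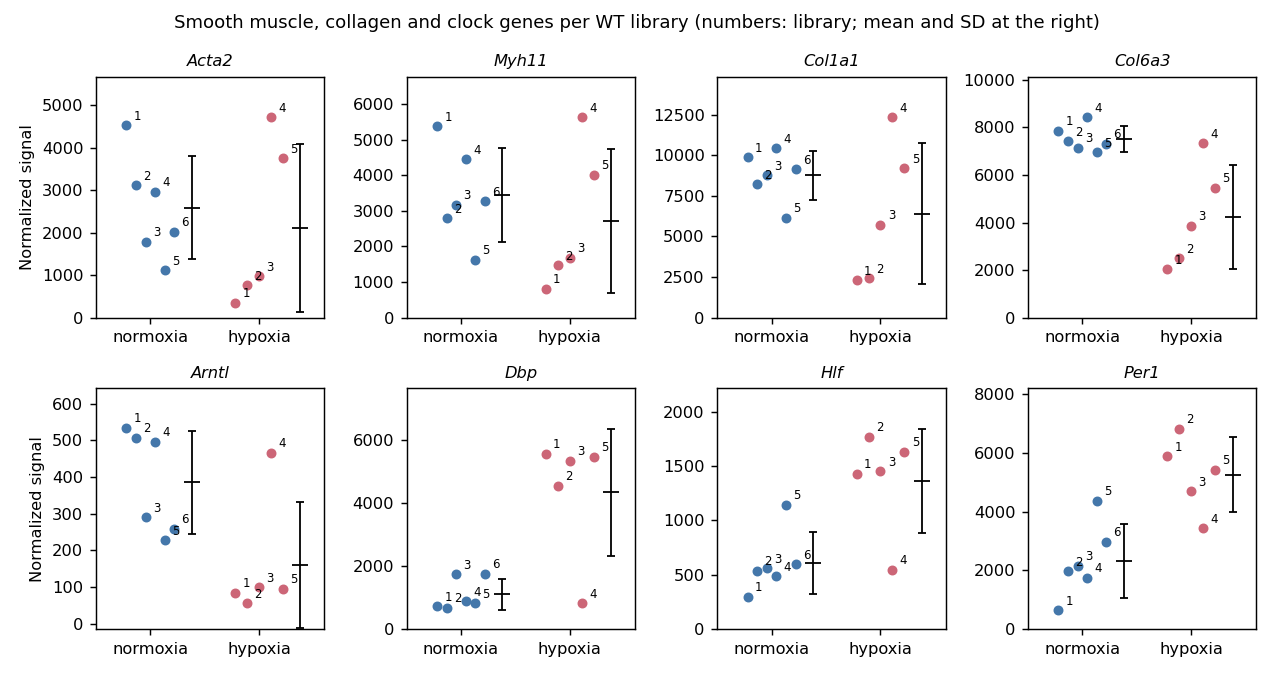
Normalized signal of smooth muscle, collagen and clock genes in each WT library, numbered within its group, with the mean and SD at the right of each group. For Acta2, Myh11 and the 2 collagens, hypoxia libraries 4 and 5 lie above libraries 1 to 3, and for Arntl, Dbp and Hlf library 4 lies with the normoxia group.

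In the alveolar epithelium the type 2 list rose and the type 1 list hardly moved. Of the type 2 genes, which make surfactant, 9 of 13 rose and 0 fell, with a median of 0.57 (10 and 0.78 without WT hypoxia 4 and 5, and 5 without WT hypoxia 3). Lpcat1, which makes surfactant phosphatidylcholine, was at 12650, 11651, 12844, 9827 and 9892 in WT hypoxia 1 to 5 against 6728, 7629 and 8503 in normoxia, without overlap, and rose by 0.57 ± 0.11 (adjusted p = 0.00529). The surfactant protein gene Sftpb was at 90548, 84518, 84538, 50397 and 73250 against 39602, 44014 and 60054 and rose by 0.71 ± 0.15 (adjusted p = 0.00894). Napsa, the protease that processes it, rose by 0.64 ± 0.14 (adjusted p = 0.00964), and in both genes WT hypoxia 4 was inside the normoxia range. Of the type 1 genes 1 of 11 rose, with a median of 0.13. The tight junction gene Cldn18 rose by 0.43 ± 0.14 (adjusted p = 0.0485), kept only without WT normoxia 5 or WT hypoxia 4 (at most 0.129 for the adjusted p otherwise), so that the count was 0 without any of the other 9 libraries, and 2 without WT hypoxia 4 and 5 together.

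Airway epithelium was higher in its secretory and ciliated genes. Of the airway secretory genes 10 of 14 rose and 0 fell, with a median of 3.03 (13 and 3.03 without WT hypoxia 4 and 5). Scgb3a1, a secretoglobin of the upper airways, was at 1707, 1920.4, 3002, 4424 and 1550 in hypoxia and at 0, 12.7 and 544 in normoxia, and rose by 6.88 ± 1.07 (adjusted p = 0.00156). Gp2, a glycoprotein that binds bacteria, was at 39.6, 105, 191, 385 and 67.4 against 0, 0.172 and 6.60 and rose by 6.10 ± 0.94 (adjusted p = 0.00149). Bpifa1, an antimicrobial protein gene of large airways, was at 785, 1827, 4373, 7844 and 1088 against 3.15, 20.8 and 1008 and rose by 6.08 ± 0.98 (adjusted p = 0.00184). The groups did not overlap for Scgb3a1 and Gp2, and for Bpifa1 WT normoxia 5 exceeded WT hypoxia 1. Within WT only hypoxia libraries reached the filter's signal of 10 for Gp2, so its rise and separation are given as description. In normoxia the level of Scgb3a1 and Bpifa1 was carried by WT normoxia 5, and in hypoxia all 3 were highest in WT hypoxia 4. Fitted differences of genes this close to 0 depend on the pseudocount.

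Ciliated cells, which clear mucus, rose in 7 of 12 genes with 0 falls and a median of 0.57 (7 without WT hypoxia 4 and 5, and 3 without WT normoxia 2, WT normoxia 4, WT hypoxia 1 or WT hypoxia 3). Tmem212 was at 642, 421.3, 463, 327 and 343 against 154, 201 and 258 and rose by 1.14 ± 0.19 (adjusted p = 0.00240). The axonemal dynein gene Dnah5 rose by 0.80 ± 0.19 (adjusted p = 0.0113), and Foxj1, the master regulator of motile cilia, was at 4139, 1993, 3142, 2620 and 2219 against 1236, 1743 and 1845 and rose by 0.72 ± 0.18 (adjusted p = 0.0143). WT hypoxia 1 was the highest library in all 3, without overlap between the groups. How much large airway each sample held is not given in the labels and was not tested.

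Among lymphocytes the B cell list had the most falls. Of the B cell genes 11 of 13 fell and 0 rose, with a median of -0.95 (11 and -1.05 without WT hypoxia 4 and 5, and 7 without WT hypoxia 1). The B cell adaptor gene Bank1 was at 262, 257, 295, 451 and 227 in WT hypoxia 1 to 5 against 441, 640.1 and 958 in normoxia and fell by 1.15 ± 0.21 (adjusted p = 0.00379), and Pax5, which fixes B cell identity, fell by 1.18 ± 0.23 (adjusted p = 0.00550). In both genes only WT hypoxia 4 reached into the normoxia range. Of the plasma cell genes 1 of 5 fell, with a median of 0.24. Prdm1, which drives plasma cell formation and is also used by T cells, fell by 0.64 ± 0.19 (adjusted p = 0.0302), with the call and the count lost when WT normoxia 1, 2, 3 or 6 or WT hypoxia 1 or 2 was left out, with an adjusted p of at most 0.0899. Without WT hypoxia 4 and 5 together 2 fell, and without WT normoxia 1 or WT hypoxia 1 another 1 rose.

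For the T cells 0 of 15 genes passed by limma (1 at an unadjusted p under 0.05, 0 with voom weights), and the 15 differences were all negative, with a median of -0.50. The smallest p was that of Lef1, at 149.6, 269.8, 249, 264 and 214 against 246, 385 and 486 (-0.72 ± 0.32, adjusted p = 0.121), and 1 gene was called lower without WT normoxia 2. Of the natural killer and cytotoxic genes 4 of 13 fell and the 13 differences were all negative, with a median of -0.74. The transcription factor gene Eomes was at 13.5, 16.9, 34.6, 38.9 and 20.6 against 41.9, 59.1 and 83.1, without overlap, and fell by 1.29 ± 0.27 (adjusted p = 0.00709). Nkg7, a granule gene, fell by 0.87 ± 0.25 (adjusted p = 0.0275), a call lost on leaving out WT normoxia 1, 2 or 4 or WT hypoxia 1, 2 or 3 (at most 0.0568 for the adjusted p). The receptor gene Klre1 fell by 1.15 ± 0.35 (adjusted p = 0.0351), kept only without WT normoxia 2 or 3 or WT hypoxia 2 or 4 (at most 0.104 for the adjusted p otherwise). The count was 7 without WT hypoxia 4, 6 without both WT hypoxia 4 and 5, 2 without WT normoxia 6 or WT hypoxia 2 or 5, and 1 without WT normoxia 1 or 4 or WT hypoxia 1 or 3.

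Myeloid cells went different ways. Among 12 alveolar macrophage genes, 8 rose and 0 fell, with a median of 0.83 (10 and 1.02 without WT hypoxia 4 and 5, 3 without WT hypoxia 1 and 4 without WT hypoxia 3). Ctsk, the collagen-degrading cathepsin K, was at 539.9, 656, 789, 486 and 334 in hypoxia against 116, 173 and 248 in normoxia, without overlap, and rose by 1.65 ± 0.41 (adjusted p = 0.0149). Siglecf, the lectin by which alveolar macrophages are sorted, was at 518, 305, 372, 233 and 324 against 132, 212 and 240.1 and rose by 0.83 ± 0.19 (adjusted p = 0.0101). The ribonuclease gene Ear2 rose by 0.97 ± 0.20 (adjusted p = 0.00703); it has near-identical copies, so its value is uncertain. In Siglecf and Ear2 only WT hypoxia 4 lay inside the normoxia range.

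Of the interstitial macrophage genes 1 of 10 rose and 1 fell, with a median of 0.19. The lipoprotein gene Apoe rose by 0.58 ± 0.16 (adjusted p = 0.0204), and the call was lost without WT hypoxia 3 or 5 (adjusted p up to 0.0552). The scavenger receptor gene Stab1 fell by 0.51 ± 0.15 (adjusted p = 0.0333), lost on leaving out WT normoxia 3, 4 or 6 or WT hypoxia 1, 2 or 3 (at most 0.0973 for the adjusted p). Rises numbered 2 without WT normoxia 5 or WT hypoxia 1. Their count was 0 without WT hypoxia 3 or 5 and without WT hypoxia 4 and 5 together, and that of falls 0 without the libraries that ended the Stab1 call. Of the monocyte genes 0 of 12 passed by limma (1 at an unadjusted p under 0.05, 0 with voom weights), with a median of -0.04. The smallest p was that of F13a1, coagulation factor XIII, at 228, 474, 487, 556 and 508 against 252, 294 and 402 (0.52 ± 0.21, adjusted p = 0.0876), and 1 was called higher without WT hypoxia 1.

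Of the neutrophil genes 1 of 11 rose, with a median of 0.67. Lcn2, which withholds iron from bacteria and is made by epithelium as well, was at 1623, 1807, 2655, 1924 and 1713 against 597, 898 and 1093, without overlap, and rose by 1.15 ± 0.35 (adjusted p = 0.0323). The call was lost on leaving out WT normoxia 2, 3 or 6 or WT hypoxia 1, 3 or 5, and without WT hypoxia 4 and 5 together (at most 0.0902 for the adjusted p). Of the dendritic cell and MHC class II genes 2 of 16 fell, with a median of -0.16. The homing receptor gene Ccr7 fell by 0.71 ± 0.18 (adjusted p = 0.0174), lost without WT hypoxia 1 (adjusted p = 0.0526). H2-Ob, which is also used by B cells, fell by 0.91 ± 0.25 (adjusted p = 0.0208), lost without WT hypoxia 1 or 5 (adjusted p up to 0.0527), so that the count was 0 and 1 in those fits. It was 3 without WT hypoxia 4 and 5 together, and 1 gene rose without WT normoxia 4 or WT hypoxia 2. Of the mast cell, basophil and eosinophil genes 0 of 6 passed by limma (2 at an unadjusted p under 0.05, 0 with voom weights), with a median of 0.39 and the smallest p at the IgE receptor gene Ms4a2 (-1.53 ± 0.52, adjusted p = 0.0530). Without WT hypoxia 1, 1 of these was called higher and 1 lower, and without WT normoxia 5, 1 was called lower.

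Inflammatory lists held few changes. Of the interferon-stimulated genes 0 of 18 passed by limma (2 at an unadjusted p under 0.05, 0 with voom weights), with a median of 0.00, and the smallest p was that of Ifit3 (0.57 ± 0.22, adjusted p = 0.0839). It rose by 0.83 without WT hypoxia 4 and 5 (adjusted p = 0.0223). On this list 1 gene was called higher without WT normoxia 5, and 1 higher and 1 lower without WT hypoxia 4. Of the chemokines 0 of 20 passed by limma (2 at an unadjusted p under 0.05, 0 with voom weights), with a median of -0.06 and the smallest p at Ccl6 (0.94 ± 0.32, adjusted p = 0.0519), and 1 was called higher without WT normoxia 5 or WT hypoxia 1. Of the type 2 and acute inflammatory genes 1 of 12 rose and 1 fell, with a median of 0.78. Il33, the epithelial alarmin of type 2 immunity, was at 1772, 1428, 1686, 1154 and 1696 against 657, 902 and 1266 and rose by 0.83 ± 0.19 (adjusted p = 0.0101), while Il4ra, the receptor chain shared by IL-4 and IL-13, was at 1800.1, 2379, 2566, 3063 and 2184 against 3035, 3603 and 3899 and fell by 0.58 ± 0.14 (adjusted p = 0.0131). The count of rises was 2 without WT hypoxia 2, WT hypoxia 4, or WT hypoxia 4 and 5 together. Of the complement genes 2 of 11 rose, with a median of 0.42, the protease gene C1ra (0.42 ± 0.10, adjusted p = 0.0136) and C2 (0.80 ± 0.27, adjusted p = 0.0495). The C2 call was kept only without WT normoxia 2 or 5 or WT hypoxia 4 (at most 0.128 for the adjusted p otherwise), and the count was 4 without WT normoxia 5, 5 without WT hypoxia 4 and 1 without WT normoxia 1, 3 or 6 or WT hypoxia 1, 2, 3 or 5.

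Blood genes held no calls over all 11 libraries. Of the erythroid and hemoglobin genes 0 of 12 passed by limma (0 at an unadjusted p under 0.05, 0 with voom weights), with a median of -0.09. Of these, 4 fell without WT hypoxia 4, and 2 without WT hypoxia 4 and 5 together. The mean log2 level of this list, relative to the normoxia mean, was -0.04, -0.62, -0.52, 2.41 and -0.71 in WT hypoxia 1 to 5 and -2.65 to 1.41 in normoxia, with WT hypoxia 4 the highest of all 11. Of the platelet genes 0 of 6 passed by limma (1 at an unadjusted p under 0.05, 0 with voom weights), with a median of 0.07 and the smallest p at the platelet factor gene Pf4 (0.58 ± 0.28, adjusted p = 0.151). For further lists with no call the smallest p were those of Myl1 of skeletal muscle (1.80 ± 0.92, adjusted p = 0.180), the natriuretic peptide gene Nppa of heart muscle (2.62 ± 0.97, adjusted p = 0.0708), the keratin gene Krt15 (3.14 ± 1.10, adjusted p = 0.0578), Msln of mesothelium (1.17 ± 0.40, adjusted p = 0.0536) and Col11a2 of cartilage (-0.72 ± 0.32, adjusted p = 0.119). Msln rose by 1.53 without WT hypoxia 4 and 5 (adjusted p = 0.0302).

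The adipocyte list was higher in summed signal throughout the hypoxia group, but not each of its genes was. Of the 12 tested, 5 had separated groups, against 4.13% of all genes. Retn, for which within WT only hypoxia libraries reached the filter's signal, is among them. Lipe was at 1227, 914, 1203 and 1328 in WT hypoxia 1 to 4, none above the highest normoxia value of 1421.5. The mean log2 level of the list, relative to the normoxia mean, was 1.40 in WT hypoxia 2 and 1.24 in WT normoxia 2. Of 12 genes 9 rose and 0 fell, with a median of 3.03 (7 and 1.98 without WT hypoxia 4 and 5). Beside Cfd and Retn, the lipid droplet gene Plin1 was at 528, 81.2, 142, 443 and 2554 in WT hypoxia 1 to 5 against 1.57, 7.72 and 72.2 in normoxia and rose by 5.02 ± 0.85 (adjusted p = 0.00234). The summed signal of the list was 8583, 4876, 5378, 7209.5 and 30459 against 3027 to 3812. All 5 hypoxia libraries were above every normoxia library, with WT hypoxia 5 far above the rest. How much fat was attached to each sample was not tested.

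Clock genes set WT hypoxia 4 apart from the other 4 hypoxia libraries. Of 16 clock genes 3 rose and 1 fell, with a median of 0.78, and without WT hypoxia 4 these counts were 10 and 2 (9 and 2 without WT hypoxia 4 and 5 together). Arntl, which codes for the activator BMAL1, was at 84.7, 55.8, 99.6, 466 and 95.9 in WT hypoxia 1 to 5 and at 228, 393 and 534 in normoxia, and fell by 1.64 ± 0.51 (adjusted p = 0.0362). The clock output gene Dbp, which peaks opposite to Arntl, was at 5557, 4539, 5332, 813 and 5463 against 672, 847 and 1747 and rose by 1.83 ± 0.59 (adjusted p = 0.0410). It was picked after its values were seen, and its call was kept only without WT normoxia 3 or 6 or WT hypoxia 4 (at most 0.103 for the adjusted p otherwise). In both Arntl and Dbp, libraries 1, 2, 3 and 5 were outside the normoxia range and library 4 was within it. The output gene Hlf rose by 1.19 ± 0.35 (adjusted p = 0.0309) and the repressor gene Per1 by 1.36 ± 0.40 (adjusted p = 0.0279). Without WT hypoxia 4 the 4 differences were -2.14, 2.37, 1.49 and 1.51. The calls of Arntl and Hlf were lost without WT normoxia 1, 2 or 4 or WT hypoxia 1, 2, 3 or 5, and that of Per1 without the same libraries except WT normoxia 2 (adjusted p up to 0.0829). The count of rises was 0 without WT normoxia 1 or 4 or WT hypoxia 1, 2, 3 or 5, 1 without WT normoxia 2 and 8 without WT normoxia 5. The hour at which each lung was taken is not given in the labels, and its part was not tested.

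Of the glucocorticoid-responsive genes, many of which also follow the clock, 3 of 12 rose and 0 fell, with a median of 0.55 (5 without WT hypoxia 4 and 5, 5 without WT normoxia 5 and 6 without WT hypoxia 4 alone). Mt2, a metallothionein gene, was at 205, 173, 126, 128 and 264 against 33.1, 63.6 and 110.4, without overlap, and rose by 1.56 ± 0.29 (adjusted p = 0.00396). Its neighbour Mt1 rose by 1.10 ± 0.28 (adjusted p = 0.0159). Tsc22d3, which codes for the glucocorticoid-induced leucine zipper, was at 5216, 8211, 4808, 3397 and 5427 against 1799.8, 2568 and 7223, with WT normoxia 5 among the hypoxia values. It rose by 0.84 ± 0.27 (adjusted p = 0.0419), kept only without WT normoxia 5 or WT hypoxia 4 (at most 0.0989 for the adjusted p otherwise). Of the immediate early genes 0 of 15 passed by limma (3 at an unadjusted p under 0.05, 0 with voom weights), with a median of -0.24 and the smallest p at Jun (-0.34 ± 0.13, adjusted p = 0.0853). On this list 3 fell without WT hypoxia 4, and 1 without WT hypoxia 4 and 5 together or without WT normoxia 1.

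Of the cell cycle and DNA replication genes 3 of 26 fell (11.5%, against 6.77% of all genes) and 0 rose. The median was -0.42 (6 fell without WT hypoxia 4 and 5). The proliferation marker Mki67 was at 275, 262, 396, 431 and 557 in hypoxia against 525, 661 and 736 in normoxia and fell by 0.82 ± 0.24 (adjusted p = 0.0275). The centromere genes Cenpf and Cenpe fell by 1.28 ± 0.35 (adjusted p = 0.0229) and by 0.84 ± 0.27 (adjusted p = 0.0443). The Mki67 call was lost on leaving out WT normoxia 6 or WT hypoxia 1, 2 or 3 (at most 0.0735 for the adjusted p), that of Cenpf without WT hypoxia 1 or 2 (up to 0.0534), and that of Cenpe was kept only without WT hypoxia 5 (up to 0.0914 otherwise). The count was 0 without WT hypoxia 1 or 2 and 1 without WT normoxia 6 or WT hypoxia 3.

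The genes that fell were not evenly spread over kinds of transcript, a pattern noticed after the values were seen. Of 15066 protein-coding genes 1595 rose and 697 fell, with a median of 0.07. Of 1609 genes annotated TEC, predicted loci that await experimental support, 336 (20.9%) fell and 0 rose, with a median of -0.61. Of 1043 antisense genes 146 fell and 3 rose, of 185 sense intronic genes 37 fell and 1 rose, and of 569 lincRNA genes 58 fell and 7 rose. Processed pseudogenes differed, with 76 of 1627 lower (4.67%) and 44 higher. Between VIPKO hypoxia and VIPKO normoxia the medians were -0.27 for TEC, -0.31 for antisense, -0.37 for sense intronic and -0.24 for lincRNA genes. Without WT hypoxia 3 the falls numbered 316 for protein-coding, 49 for antisense, 11 for sense intronic and 27 for lincRNA genes, the lowest counts of the fits without 1 WT library. The TEC count of falls was 86 without WT hypoxia 3 and up to 472 in the other fits without 1 WT library, and the TEC median lay between -0.70 and -0.50 in these fits and at -0.61 without WT hypoxia 4 and 5.

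Shares of the signal were also lower for the TEC, antisense, sense intronic and lincRNA types. Processed pseudogenes took 1.01% to 1.34% in hypoxia and 0.909% to 1.08% in normoxia, so their share was not lower. TEC genes took 0.551%, 0.660%, 0.375%, 0.681% and 0.426% of the signal in WT hypoxia 1 to 5 and 0.758% to 0.974% in normoxia. Antisense genes took 0.219% to 0.319% in hypoxia and 0.341% to 0.434% in normoxia, sense intronic genes 0.0521% to 0.0839% against 0.0918% to 0.116%, and lincRNA genes 1.90% to 3.20% against 3.23% to 4.23%. None of the TEC, antisense, sense intronic and lincRNA shares overlapped between the groups, and WT hypoxia 3 and 5 were the lowest in each. The lincRNA share is largely that of 1 gene, Malat1, so the share and this gene are not separate results. In WT normoxia 3 Malat1 held 729900 of 20.2 M units of signal, where lincRNA genes took 4.21%. The lincRNA share without Malat1 was not computed. Malat1, an abundant nuclear RNA retained at speckles, was at 423080, 430560, 299340, 491010 and 334990 in hypoxia against 497870, 638080 and 729900 in normoxia, without overlap, and fell by 0.66 ± 0.22 (adjusted p = 0.0471). It was picked after its values were seen, and its call was kept only without WT hypoxia 4 (at most 0.129 for the adjusted p without any other library, and 0.0626 without WT hypoxia 4 and 5 together). Which strand was counted is not given, so reads of such genes and of the introns or genes they overlap cannot be told apart. RNA quality was not tested.

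**Figure D5:**
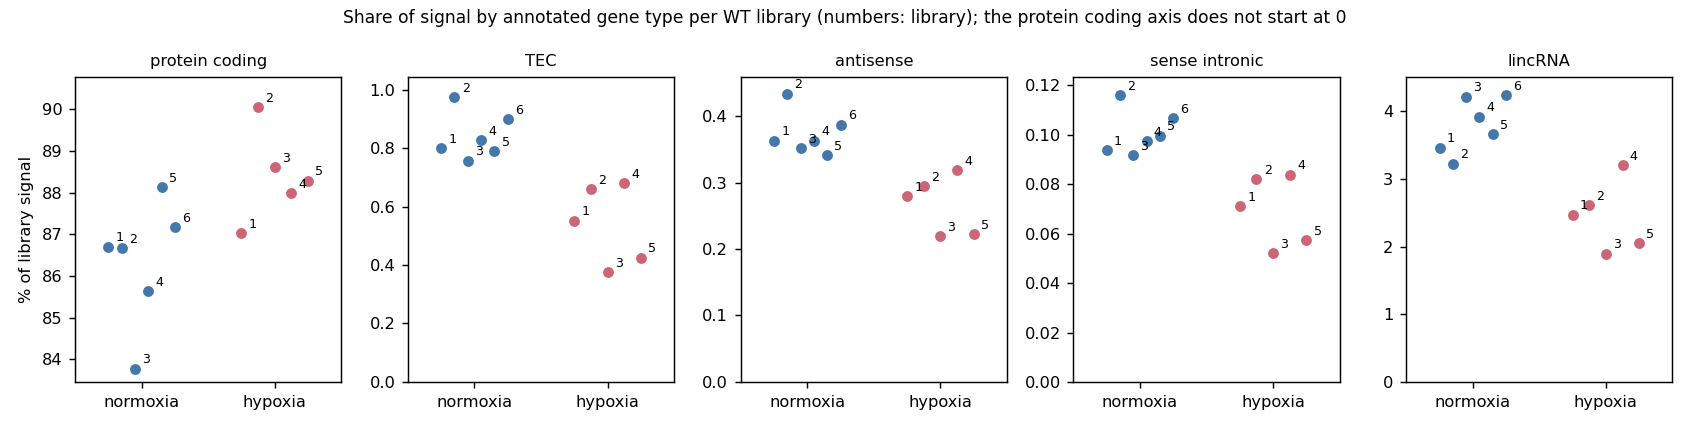
Share of the library's signal, in percent, taken by genes of 5 annotated types in each WT library, numbered within its group. TEC, antisense, sense intronic and lincRNA shares are lower in every hypoxia library than in any normoxia library, while the protein coding shares overlap.

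The WT response was set beside that of the VIPKO lungs, which has its own normoxia and hypoxia libraries. The group means of the 2 comparisons share no library, but both use the same filter and the same estimate of the spread. In VIPKO 133 genes (0.614%) were called higher and 83 (0.383%) lower. Of the 1707 genes that rose in WT, 68.8% were positive in VIPKO and 44 were called higher there, and of the 1466 that fell 78.5% were negative and 54 were called lower. Over all genes 48.3% were positive in VIPKO. The difference between the 2 hypoxia effects passed for 61 genes (0.282%), of which 41 were among the genes called in WT. That count ranged from 4 to 541 when single libraries were left out (541 without WT hypoxia 4, 4 without VIPKO normoxia 4). It was 674 without WT hypoxia 4 and 5 together, and 364 without VIPKO hypoxia 3.

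Of the genes described here, 3 had a difference between the hypoxia effects of the genotypes that passed over all 20 libraries. With the replicate number as a block 0 genes passed, so none of these 3 did. Over all genes 7 passed without WT normoxia 4 and 4 without VIPKO normoxia 4. Whether the 3 were among them is not given here. Cyp2a5 was at 881, 867, 896 and 2332 in VIPKO normoxia 1 to 4 and at 308, 357, 884, 449.7 and 308 in VIPKO hypoxia 1 to 5, and its WT effect exceeded the VIPKO effect by 4.28 ± 0.63 (adjusted p = 0.0117). Bpifa1 was at 541, 739, 5008 and 3000.3 in VIPKO normoxia and 583, 1533, 1162, 947 and 621 in VIPKO hypoxia, with a difference of 6.87 ± 1.46 (adjusted p = 0.0480). Tmem212 was at 243, 351, 363 and 428 and 234, 279, 393, 327 and 209, with a difference of 1.41 ± 0.29 (adjusted p = 0.0397). For Cyp2a5 every VIPKO normoxia library was above every WT normoxia library, and for Bpifa1 all 4 were above 5 of the 6. The airway secretory list had a median of 3.03 in WT and -0.20 in VIPKO, where 0 of 14 were called by limma (1 at an unadjusted p under 0.05, 0 with voom weights). For Scgb3a1 the difference of the effects was 6.00 ± 1.60 (adjusted p = 0.104).

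Other changes were found in both genotypes. Ankrd63 fell in VIPKO as well (-3.26, adjusted p = 4.38e-07), as did Plvap (-1.57, adjusted p = 0.000142), Dpysl5 (-1.26, adjusted p = 3.45e-05), Sox11 (-1.11, adjusted p = 0.00414) and Pax5 (-1.51, adjusted p = 0.00457). Rgs5 (2.88, adjusted p = 0.000119), Ccl21a (1.63, adjusted p = 0.000129), Mmrn1 (1.35, adjusted p = 0.00374) and Trpv4 (0.91, adjusted p = 0.000129) rose in both. On the lists, B cell genes fell in 11 of 13 cases in WT and 8 of 13 in VIPKO, lymphatic genes rose in 6 and 4 of 9, and aerocyte genes fell in 8 and 3 of 9. Glycolysis genes rose in 12 of 15 in WT and 0 of 15 in VIPKO by limma (7 at an unadjusted p under 0.05, 0 with voom weights), with medians of 0.61 and 0.37, and the difference between the genotypes did not pass for Aldoc (adjusted p = 0.187), Tpi1 (adjusted p = 0.433) or Pfkl (adjusted p = 0.952). A call in one genotype only is not a difference between them.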

How the data were processed

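Per the labels' protocols, lung RNA came from RNeasy Mini Plus columns, and 1 µg of it entered a directional library preparation (NEBNext Ultra II). The authors deposited 1 table of normalized signal per gene and library, with no further unit stated; Partek and the mm10 genome are named in the submitters' processing notes. Of the normalization, the aligner and the counting strand nothing is given in the sources used. Dividing low values by the smallest step gave whole reads for 86.0% to 88.8% of them in the WT libraries (within 0.05 of a whole number), so whole reads were not recovered and count models were not used. The signal per library summed to 18.6 to 20.8 M.

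Genes with a signal of at least 10 in at least 4 of the 20 libraries were kept (21658). They were fitted with limma 3.58.1 in R 4.3.3 on log2(signal + 1), with the 4 group means of all 20 libraries and a variance trend, and p-values were adjusted by Benjamini-Hochberg over all genes kept. Other steps ran in Python 3.11.15 (scipy 1.17.1, numpy 2.4.6, pandas 2.3.3, matplotlib 3.10.9), and the fit was tested on simulated data. Of the 30746 lines, 55 had no gene name and were left out. Vip was compared by an exact permutation test. The genes named are the 10 with the smallest p in each direction (groups separated and the higher mean 50 or more, without predicted genes, antigen receptor segments or sex-linked genes such as Xist), the 3 called genes with the smallest p of each of 58 lists or, with no call, the 1 with the smallest p, Vip, and skeletal muscle genes; genes picked after their values were seen are marked as such, and 3 genes that the rule picked are not reported here. The 11 libraries and the lists were chosen with earlier results of these data known. Alternatives changed the pseudocount, filter, scaling, variance model, libraries fitted and replicate block, and left out each library.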

Additional observations from a re-analysis of the deposited data

Results flagged for a closer look

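Of 250 groups of named genes, 30 (12%) held a library whose gap to its nearest neighbour was large for the range of its group. The cut-offs are set to give about 1 in 20 for independent, normally distributed values. The named genes were picked by p and share the same few libraries, and the rate over all genes was not computed. The 12% is therefore not read as an excess. WT normoxia 5 was the outlying library in 10 of the 30 groups, WT hypoxia 5 in 8, WT hypoxia 4 in 4, WT normoxia 2 in 4, WT hypoxia 1 in 2, and WT hypoxia 2 and WT normoxia 4 in 1 each.

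WT hypoxia 5 stood high with a signal of 354 for Egln3, 2426 for Tpi1, 2391 for Mdh2 and 3114 for Uqcrc1, the genes of oxygen sensing and energy metabolism. It also stood high at 2554 for Plin1 of adipocytes, 750.1 for Myl1 of skeletal muscle, 1566 for Krt15 of squamous epithelium and 72.0 for Cenpe. WT hypoxia 4 stood high at 1874 for Adamts9, 81.6 for Adamts4 and 466 for Arntl, and low at 544 for Hlf. WT hypoxia 1 stood high at 57.6 for Htr2b and low at 228 for F13a1, and WT hypoxia 2 stood high at 227 for Dpysl5.

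WT normoxia 5 was high at 608 for Cyp2a5, 3229 for Herpud1, 3440.4 for Col12a1, 6.60 for Gp2, 544 for Scgb3a1, 1007.5 for Bpifa1, 1145.5 for Hlf and 7223 for Tsc22d3. It was low at 8655 for Mylk and 1290.1 for Col5a1. WT normoxia 2 was high at 185 for Cfd, 72.2 for Plin1 and 27.7 for Nppa and low at 902 for Uqcrc1. WT normoxia 4 was low at 1236 for Foxj1. The causes were not tested.

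The hypoxia effect differed between the genotypes by the test of the difference for 3 named genes over all libraries. With the replicate number as a block none of them passed. The WT effect exceeded the VIPKO effect by 4.28 for Cyp2a5, by 6.87 for Bpifa1 and by 1.41 for Tmem212, on the log2(signal + 1) scale.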

How the results depend on the processing

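Of 3994 differences of named genes recomputed under the alternatives, 3614 kept their direction and their side of the threshold, 334 lost the call, 46 gained one and 0 changed direction while called. The 3173 genes called in WT became 6590 with library weights, and lay between 1382 (without WT hypoxia 3) and 4710 (without WT hypoxia 4) when single WT libraries were left out and between 2843 and 4243 when single VIPKO libraries were. They numbered 3541 without WT hypoxia 4 and 5, a setting chosen after seeing the data. The 61 genes whose effect differed between the genotypes became 12 with no variance trend, 2228 with library weights, 275 with voom weights on estimated reads and 674 without WT hypoxia 4 and 5, and 4 to 541 when single libraries were left out. The Vip difference lay between -20.1 and -1.55 without single WT libraries. The causes were not tested.

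Same-numbered WT libraries did not deviate together (correlations of -0.205 to -0.017), so the numbers were not taken as pairs. With the replicate number as a block 1544 genes were called in WT and 0 for the difference.

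WT hypoxia 4, with 4.96 M estimated reads, was the shallowest library. There 1 estimated read was a signal of 3.89, so values of low genes are coarse. Of 111 named calls, 78 held in every fit without 1 WT library. Leaving out WT hypoxia 4 ended 2 named calls, and leaving out WT hypoxia 1, 2 or 3 ended 30, 22 or 28. The part of depth in these losses was not tested.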
